A study of Mus musculus with 10 samples.

Results

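5.8S rRNA was followed here position by position in RiboMeth-seq tables of mouse embryonic stem cells (ESCs) and of neurons induced from them. Its members are the 157 positions from 6878 to 7034 of the 45S pre-rRNA, out of 13400 positions of the 45S and 13591 positions in the tables, and they were chosen by these bounds alone, without any measured value. In the text below position 1 of 5.8S is 45S position 6878 and position 157 is 45S position 7034. The tables name no genome build, so chromosome coordinates are not given.

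5.8S rRNA is cut out of the 45S precursor between the internal transcribed spacers and base-pairs with 28S rRNA in the large ribosomal subunit. It exists in a short and a long form that differ by a few nucleotides at the 5′ end. Textbook maps give it a pair of ribose 2′-O-methylated nucleotides, Um14 and Gm75, which box C/D small nucleolar RNAs (Snord71 and Snord96a) guide the methyltransferase fibrillarin to. RiboMeth-seq finds such nucleotides by partial alkaline hydrolysis: a methyl group on the 2′ oxygen protects the neighbouring bond, fewer fragments end there, and a gap appears in the profile of read ends. Pseudouridines, of which positions 55 and 69 of 5.8S are known, leave the ribose unmodified.

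The 10 libraries form 5 groups of 2 biological replicates, A and B. For each library the same ranges are listed, 150 to 250 ng of RNA and 1 to 12 minutes of hydrolysis. ESCs received no treatment. The other 4 groups are neurons made from ESCs by doxycycline-induced Ngn2 (1 ug/mL), which then took up an antisense oligonucleotide (ASO) from the medium at 10 uM for 72 to 96 hours. One set of neurons received an ASO against Snord101 or a non-targeting ASO, the other set an ASO against Snord89 or a non-targeting ASO, so both knockdown groups and both control groups share the differentiation and the exposure to a gapmer. Each set has its own table. The study compared each knockdown with the controls of its own set to find positions guided by Snord101 or Snord89. Neither snoRNA is a textbook guide of a 5.8S site. The ASOs were 5-10-5 MOE gapmers. That against Snord101 is shown because it defines a knockdown group, with the central DNA gap in capitals and the wings in lower case:
Snord101 ASO: gggtaTCCGACAATTcaagt
The levels of the targeted snoRNAs and of cell-type marker genes were not analysed here, so neither the knockdown nor the neuronal identity was checked from expression.

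The deposited counts are read ends per position. The ESC table counts 5′ ends and both neuron tables add 5′ and 3′ ends, so ESC and neuron values were set side by side and not tested against each other. 5.8S held 574149 and 524143 ends in the ESC libraries and from 2952686 to 4878371 ends in the neuron libraries, which was 2.94% to 3.82% of all 45S ends on 1.17% of its positions. The deposited score divides the ends at a position by a weighted mean of its 12 neighbours, 6 per side, and subtracts the quotient from 1, with a floor at 0, so 1 is a full gap and 0 is no gap. Across the 157 positions, scores of the libraries of 1 group correlated at Pearson's r of 0.981 to 0.996 (5 pairs), those of libraries from different neuron sets at 0.882 to 0.942 (16 pairs) and those of an ESC and a neuron library at 0.311 to 0.408 (16 pairs). Neighbouring positions share their flanks, so these coefficients only describe the libraries. No pair of replicates agreed within counting noise.

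Gaps lay 1 position before each textbook methylated nucleotide in every library. At position 74 (45S position 6951), next to Gm75, the ESC libraries had 902 and 754 ends. Snord101-set controls had 361 and 541 ends at this position and Snord101 knockdown libraries 344 and 256. Snord89-set controls had 398 and 397 and Snord89 knockdown libraries 393 and 538. These few ends were counted where the flanking mean lay between 7579 and 9475 in ESCs and between 32583 and 53325 in neurons. The score at position 74 was therefore 0.905 and 0.901 in ESCs (0.903 ± 0.00303, SD, n = 2) and 0.984 to 0.992 in the 8 neuron libraries, with 0.990 ± 0.00106 in the controls (SD, n = 4). It was the highest of the 157 lowest-library scores in the control neurons and the 11th in ESCs. Position 75 itself had scores of 0 to 0.00785 in the 10 libraries.

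The gap at position 13 (45S position 6890), next to Um14, was shallower, with overlapping scores in ESCs and neurons. Its score was 0.805 and 0.780 in ESCs. Snord101-set controls scored 0.797 and 0.742 and Snord101 knockdown libraries 0.777 and 0.790. Snord89-set controls scored 0.785 and 0.786, and the Snord89 knockdown libraries both 0.802. The ESC mean was 0.793 ± 0.0179 (SD, n = 2) and the control neuron mean 0.777 ± 0.0244 (SD, n = 4), and the ranges of the groups overlapped. By its lowest-library score position 13 was the 26th in ESCs and the 5th in the control neurons. Between 1983 and 8688 ends were counted at position 13, against a flanking mean of 9007 to 33618. Position 14 itself had scores of 0.499 and 0.472 in ESCs and 0.0541 to 0.223 in neurons.

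Whether the shift by 1 position comes from the numbering of 5.8S in the 45S sequence or from how the ends were assigned cannot be told apart with these tables. The sequence of 5.8S was not used here, so the bases at positions 13, 14, 74 and 75 are not given. With the plain median of the flanking counts in place of the weighted mean, the score ranged from 0.671 to 0.751 at position 13 and from 0.882 to 0.992 at position 74. With only 2 flanking positions on each side it ranged from 0.759 to 0.825 and from 0.892 to 0.993. The pseudouridine at 55 scored 0 to 0.0942 in ESCs and 0.348 to 0.452 in neurons, and the pseudouridine at 69 scored 0 in all 10 libraries. The position before 55, position 54, scored 0.751 and 0.760 in ESCs and 0.616 to 0.751 in neurons, and position 68 scored up to 0.704 in ESCs and 0.400 to 0.504 in neurons.

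**Figure D1:**
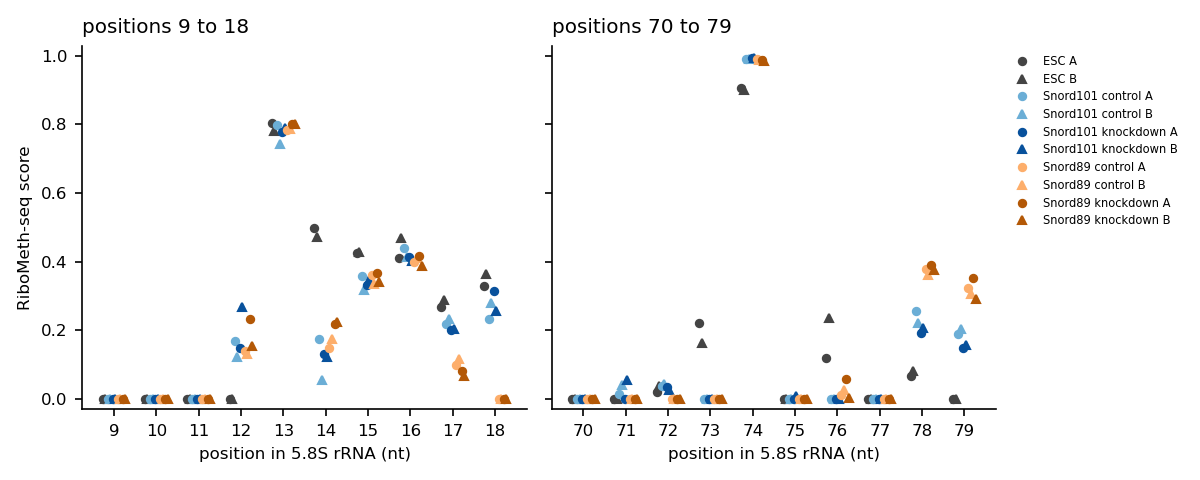
RiboMeth-seq scores (no unit, 0 to 1) around the known methylated nucleotides of 5.8S, by position and library. Position 74 scored 0.901 or more in every library and position 13 between 0.742 and 0.805, while position 75 stayed at or near 0.

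Neither knockdown moved a 5.8S position past the test's threshold. Ends at each position were compared relative to the flanking mean with edgeR's quasi-likelihood test, adjusted over all tested positions of the table, and a positive log2 end ratio means more ends and a lower score in the knockdown. For Snord101, 0 of 157 positions had an adjusted p under 0.05, beside 0.369% of all 12997 positions tested. For Snord89 it was 0 of 157, beside 0.297% of 13141. At an unadjusted p under 0.05 there were 15 positions (9.55%) for Snord101 and 14 (8.92%) for Snord89, where the shares over all positions were 12.8% and 9.58%. Log2 end ratios along 5.8S ran from -0.53 to 0.36 for Snord101, with a median of -0.02 beside 0.04 over all positions, and from -0.36 to 0.38 for Snord89, with a median of -0.01 beside 0.01. The median SE was 0.08 and 0.05.

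At the gap next to Um14 the log2 end ratio was -0.09 for Snord101 (SE 0.14, 95% interval -0.43 to 0.25, edgeR adjusted p = 0.797) and -0.12 for Snord89 (SE 0.06, interval -0.26 to 0.02, edgeR adjusted p = 0.578). Neither interval reached 1 log2 unit in either direction, and both held 0. At the gap next to Gm75 the log2 end ratio was -0.26 for Snord101 (SE 0.16, interval -0.67 to 0.15, edgeR adjusted p = 0.540) and 0.38 for Snord89 (SE 0.19, interval -0.07 to 0.83, edgeR adjusted p = 0.579). The point estimates at position 74 had opposite signs, and the Snord101 value minus the Snord89 value was -0.64 (SE 0.28, interval -1.30 to 0.01, edgeR adjusted p = 0.716). These values rested on single libraries: the Snord89 value was 0.06 without Snord89 knockdown B and 0.64 without knockdown A, the Snord101 value was -0.13 without Snord101 control B, and the difference was -0.33 without Snord89 knockdown B. With 256 to 541 ends per neuron library, this gap carried fewer ends than most of 5.8S, whose median position had between 13237 and 25163 ends per neuron library.

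Position 50 had the lowest p of the Snord101 comparison. Controls had 0.651 and 0.714 ends over the flanking mean and knockdown libraries 0.551 and 0.457, so the groups did not overlap. The position was picked by its p, so this separation is no further support. The log2 end ratio was -0.44 (SE 0.11, interval -0.71 to -0.16, edgeR adjusted p = 0.210). In DESeq2 the adjusted p at position 50 was 0.0441, and over all alternatives run it ranged from 1.1e-05 to 0.937. Positions 114 (log2 end ratio -0.33), 39 (0.28), 145 (0.36) and 1 (-0.24) followed by p, with edgeR adjusted p of 0.247 to 0.285. The value at position 1 turned to 0.04 with a library-size offset in place of the flanking mean. Without control A of the Snord101 set 13 positions passed (beside 6.46% of all positions) and without control B 15 (beside 25.5%). In these fits the lone control is assumed to vary like the knockdown libraries.

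In the Snord89 comparison the lowest p was at position 131. Controls had 0.445 and 0.476 ends over the flanking mean there and knockdown libraries 0.387 and 0.383. The groups did not overlap, at a position that was likewise picked by its p. The log2 value was -0.26 (SE 0.07, interval -0.42 to -0.10, edgeR adjusted p = 0.270). Positions 150 (-0.24), 9 (0.13), 51 (0.17) and 86 (-0.14) followed, with edgeR adjusted p of 0.343 to 0.423. Leaving out control A of the Snord89 set brought 1 position past the threshold, position 155, at a log2 value of 0.29 (edgeR adjusted p = 0.0200), beside 0.19 with all libraries. In that fit 4.52% of all positions passed.

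The effects of the ASOs did not differ from each other past the threshold at any 5.8S position (0 of 157, beside 0.0693% of 12987, with 10 at an unadjusted p under 0.05, beside 7.01% of all positions). The lowest p was at position 114, with a difference of effects of -0.33 (SE 0.09, interval -0.53 to -0.13, edgeR adjusted p = 0.508). Ends over the flanking mean at position 114 were 0.281 and 0.283 in the Snord101-set controls, 0.233 and 0.216 in the Snord101 knockdown, 0.482 and 0.472 in the Snord89-set controls and 0.488 and 0.469 in the Snord89 knockdown. Positions 57 (0.26), 135 (-0.52), 113 (-0.23) and 60 (0.20) came next, with edgeR adjusted p of 0.560 to 0.642. At position 13 the difference was 0.02 (interval -0.34 to 0.38).

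Counted by score, 2 of 157 positions fell by at least 0.1 without overlap between the groups in the Snord101 knockdown, beside 11.0% of all positions, and 9 rose, beside 4.61%. The positions that fell were 39, from 0.325 and 0.233 to 0.107 and 0.146, and 145, from 0.275 and 0.265 to 0.0887 and 0.0399. In the Snord89 knockdown 1 position had a score lower by that much, beside 5.82%, and 0 a higher one, beside 3.95%. It was position 135, which went from 0.257 and 0.304 to 0.124 and 0.230. None of these positions passed the edgeR test.

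**Figure D2:**
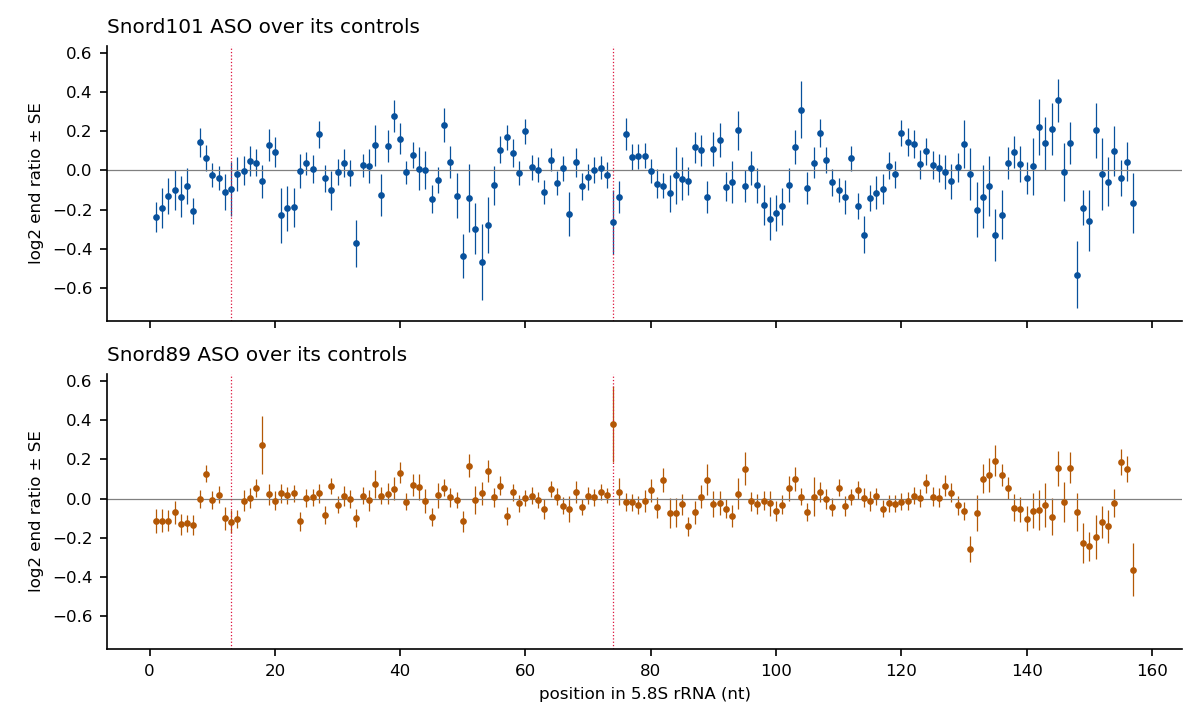
Log2 end ratio of each knockdown over its own controls along 5.8S, with SE, by position. Values lie between -0.53 and 0.38 in both panels, and no position has an edgeR adjusted p under 0.05.

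The 2 control groups, which both received non-targeting ASO, were also compared with each other, and the number of calls depended on the test. In edgeR's test 43 of the 157 positions passed (27.4%), beside 7.38% of all 13025 positions. At a mean flanking count of at least 100, 49 of the 157 passed, beside 11.0% of all 10225 positions tested. The positions outside 5.8S were not matched to it for depth, so how far depth contributes to the higher share was not tested. With limma on the log ratio 0 positions passed, here and over all positions (0.0%), and 65 of the 157 (41.4%) had an unadjusted p under 0.05, beside 23.8%. With limma on the score 6 passed (beside 1.81% of all positions), 4 of them among the 43. In the Snord101-set controls 18 of the 43 had more ends (beside 3.16% of all positions) and 25 fewer (beside 4.22%). At an unadjusted edgeR p under 0.05 there were 95 (60.5%), beside 27.2%. By score, 16 positions were lower by at least 0.1 without overlap in the Snord101-set controls (beside 8.7%) and 21 higher (beside 14.4%). This comparison shares its control libraries with the knockdown comparisons. With a library-size offset 40 positions passed, 7 with more and 33 with fewer ends, beside 19.3% of all positions, and 21 of them were among the 43. With it 7 of the 43 changed sign (3, 4, 5, 6, 70, 109 and 124), and none of these 7 passed there. That offset moved the median log2 end ratio over 5.8S from -0.06 to -0.19. The fits without control A or without control B of the Snord89 set called 0 positions in 5.8S and 0.0% of all positions. Without control A of the Snord101 set 52 passed (beside 11.3%) and without control B 60 (beside 19.7%). The methylated-site gaps were not among the 43. Position 13 had a log2 end ratio of 0.10 (SE 0.13, interval -0.25 to 0.45, edgeR adjusted p = 0.677) and position 74 of -0.16 (SE 0.17, interval -0.60 to 0.28, edgeR adjusted p = 0.603).

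The lowest p of this comparison belonged to positions 49 and 57. At position 49 ends over the flanking mean were 0.729 and 0.752 in the Snord101-set controls and 1.58 and 1.59 in the Snord89-set controls, a log2 difference of -1.10 (SE 0.04, interval -1.22 to -0.98, edgeR adjusted p = 0.0085). At position 57 they were 1.70 and 1.66 against 0.888 and 0.911 (0.90, SE 0.05, edgeR adjusted p = 0.0085). Position 47 (0.74) also had more ends and position 50 (-1.07) fewer ends in the Snord101-set controls. The other positions of the 10 with the lowest p were 114 (-0.76), 72 (-0.56), 130 (-0.61), 150 (-1.14), 129 (-0.49) and 113 (-0.44), with edgeR adjusted p up to 0.0216. The sizes of these 10 values depended on the offset and the flank, although none changed sign in the fits to ends. With the library-size offset the log2 end ratio was 0.34 at position 57, 0.28 at 47, -1.45 at 114, -1.28 at 130, -1.19 at 129 and -1.08 at 113. With 2 flanking positions per side it was -0.52 at position 50, -0.70 at 150, -0.26 at 113, -0.21 at 130 and -0.16 at 129, and with the median flank it was -0.36 at 49, -0.65 at 50 and -0.20 at 129.

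The knockdown libraries were not part of that test but belong to the same sets. They lay on the same sides at all of the 43 positions but 136. At position 49 they had 0.754 and 0.601 ends over the flanking mean in the Snord101 set and 1.57 and 1.59 in the Snord89 set. At 42 of the 43 positions the knockdown libraries of one set did not overlap with those of the other, which was so at 85.4% of the 157 positions and 66.3% of the 45S positions. The exception was position 136, where the knockdown libraries had 1.95 and 1.60 ends over the flanking mean in the Snord101 set and 1.61 and 1.67 in the Snord89 set. Over all of 5.8S, the 4 libraries of one set did not overlap with the 4 of the other at 106 of 157 positions (67.5%), beside 33.0% of the 45S positions. The 45S positions were not matched to 5.8S for depth, and the part of depth in these differences was not tested.

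**Figure D3:**
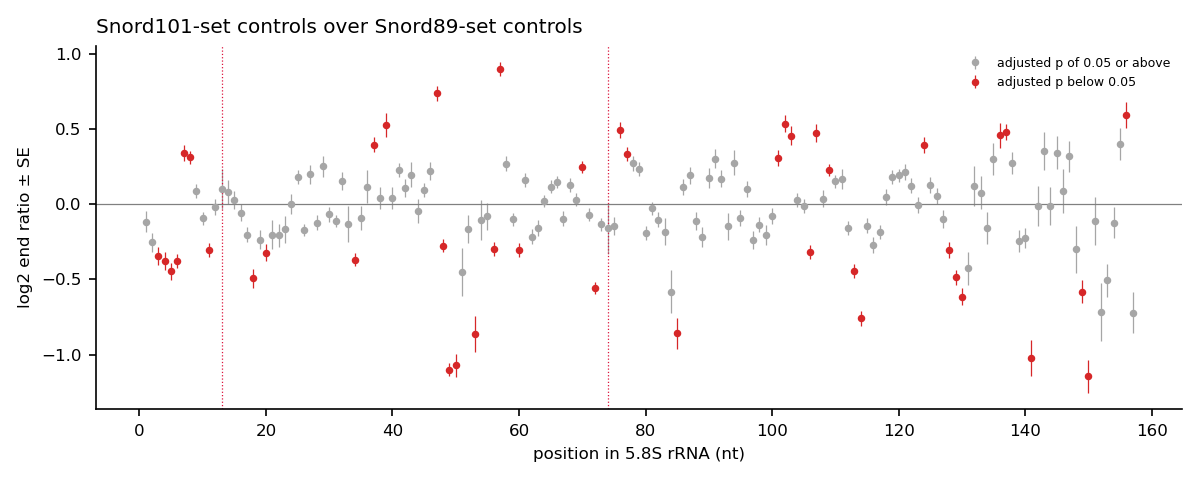
Log2 end ratio of the Snord101-set controls over the Snord89-set controls along 5.8S, with SE; red points have an edgeR adjusted p under 0.05. The 43 red points include positions 47 to 50 and 57 but not positions 13 and 74.

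In ESCs, 29 of 157 positions (18.5%) scored at least 0.75 in both libraries, beside 14.1% of all 45S positions with a score. With at least 100 flanking ends it was 22 of 124 (17.7%, beside 12.0% of all positions at that depth), and with at least 1000 it was 13 of 88 (14.8%, beside 10.1%). At a score of at least 0.9 in both libraries there were 11 of 157 (7.01%), beside 7.8% of all 45S positions. Position 54 (0.751 in the lower library) was just inside the threshold and position 93 (0.746) just outside. The 29 fell into 14 runs: 7 single positions (2, 13, 54, 74, 92, 118 and 141) and 7 runs of 2 or more that held 22 positions. The longest run, from 110 to 116, had 0 to 5 ends per library where the flanking mean was only 20.1 to 100.6. Positions 112 to 115 had 0 ends in both ESC libraries and a score of 1. At this depth 3 ends would give scores of 0.850 to 0.956 there, for counting error alone.

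Other runs had more flanking ends. At positions 29 to 31 the ESC scores were 0.852 to 0.932 with 360 to 879 ends against a flanking mean of 4945 to 6733. At the same positions the neuron scores were 0 to 0.189. Positions 51 and 52 scored 0.812 to 0.876 in ESCs and 0.503 to 0.787 in neurons. Positions 130 to 132 scored 0.956 to 0.996 in ESCs, with only 2 to 23 ends against a flanking mean of 459 to 521. Positions 137 to 139 scored 0.756 to 0.845 in ESCs, but 0 to 0.268 when the flank was summarised by its median, and 0 in all 8 neuron libraries. With that median flank the number of ESC positions at 0.75 fell from 29 to 16.

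In the 4 control neuron libraries only 3 positions reached 0.75 (1.91%, beside 1.79% of all 45S positions): 74, 157 and 2. Position 2 (0.764 in the lowest library) was just inside the threshold and position 133 (0.744) just outside. Position 13, the gap next to Um14, also fell short, with 0.742 in its lowest library. Positions 2 and 157 lie within 6 positions of the mature ends, and without the first and last 6 positions only 74 remained. Without control B of the Snord101 set 5 positions reached it (3.18%, beside 2.01% of all 45S positions). Positions 74 and 2 were shared with the ESC list, which is 6.90% of the 29 ESC positions and 66.7% of the 3 control positions. Of the 29 ESC positions, 9 (31.0%) scored 0 in all 4 control libraries, as did 49 (31.2%) of all 157. The tables count different ends, so this comparison is a description.

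**Figure D4:**
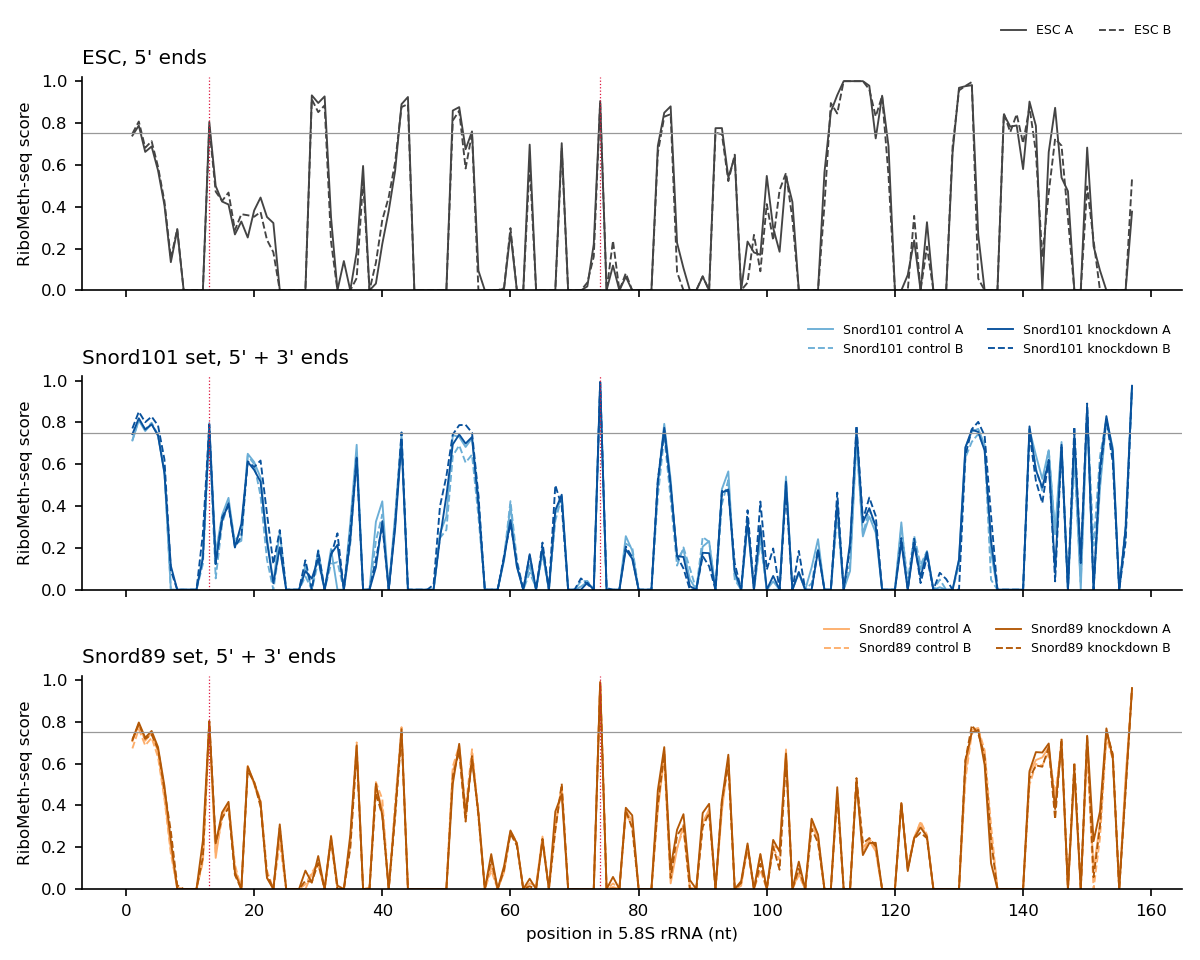
RiboMeth-seq score (0 to 1) along 5.8S in the 10 libraries, with a line at 0.75. The ESC profile crosses the line at 29 positions in both libraries and the control neuron profiles at 3 positions in all 4, with position 74 high in each panel.

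The ends of 5.8S themselves gave the tallest peaks near it. At the 5′ side the tallest peaks lay at positions -1 and 0, the last ones before position 1, with 163712 and 118944 in ESC library A and 146707 and 103839 in ESC library B. In neurons position -1 had 319514 to 755314 ends and position 0 had 214413 to 728897. A smaller peak lay farther upstream at position -6, with 24550 ends in ESC library A and 8457 at its shoulder, position -7, on the side on which the long form extends. Position -2, beside the main peaks, had more ends than -7 in every library, with 16728 in ESC library A. The ends at -7 and -6 made up 10.2% to 11.5% of the ends at -7, -6, -1 and 0 in the 10 libraries, with ranges of ESCs and neurons that overlapped. This share depends on the positions chosen and is no measure of the long form itself. The ratio of ends at 0 to ends at -1 was 0.727 and 0.708 in ESCs. Controls of the Snord101 set had ratios of 0.996 and 0.994, against 0.912 and 0.936 with the Snord101 ASO. Controls of the Snord89 set had 0.647 and 0.671, against 0.703 and 0.696 with the Snord89 ASO. The knockdown libraries lay below their controls in the Snord101 set and above them in the Snord89 set, without overlap. Each group had only 2 libraries, and these differences were not tested.

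These peaks enter the windows of the first positions. Positions 1 to 6 scored 0.408 to 0.851 over the 10 libraries with the weighted mean, and 0 to 0.409 with the median of the same flanks. Of the 43 positions that differed between the control groups, 7 had a window that held a peak of a mature end (3 to 6, 149, 150 and 156). Such windows occur only among the first 6 and the last 9 of the 157 positions.

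At the 3′ side the neuron tables had a peak at position 155, with 34131 to 92074 ends, 17.9 to 27.2 times the flanking mean. The ESC libraries had 72 and 62 ends there, 1.29 and 1.17 times the flanking mean, in a table of 5′ ends only. Position 155 held 1.59% and 1.89% of the 5.8S ends in the Snord101-set controls and 1.10% and 1.08% in the Snord89-set controls. Past the mature end, position 158 had 80 to 204 ends in neurons. Position 157, the last of 5.8S, had 181 to 358 ends in neurons and its score of 0.951 to 0.975 sits beside the peak at 155.

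Inside 5.8S few ESC ends lay in the last 2 of 5 sections. Positions 1 to 31 held 46.6% and 45.4% of the 5.8S ends in the ESC libraries, positions 32 to 62 held 16.6% and 20.3% and positions 63 to 93 held 34.9% and 32.1%. Positions 94 to 124 held only 0.736% and 0.829% and positions 125 to 157 only 1.24% and 1.37%. In neurons positions 94 to 124 held 13.7% to 19.8% and positions 125 to 157 held 5.72% to 6.35%. The neuron sets also differed here without overlap: positions 1 to 31 held 29.1% to 30.6% in the Snord101 set and 23.9% to 24.6% in the Snord89 set, and positions 94 to 124 held 13.7% to 16.3% and 19.3% to 19.8%. Within the RNA the positions with the largest mean share of ends over the libraries were 9, 11 and 66 in ESCs. They were 27, 47 and 66 in the Snord101 set and 27, 66 and 112 in the Snord89 set. These ranks did not hold in every single library. Position 112, with 0 ends in both ESC libraries, had 32650 to 73406 ends in the neuron libraries.

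**Figure D5:**
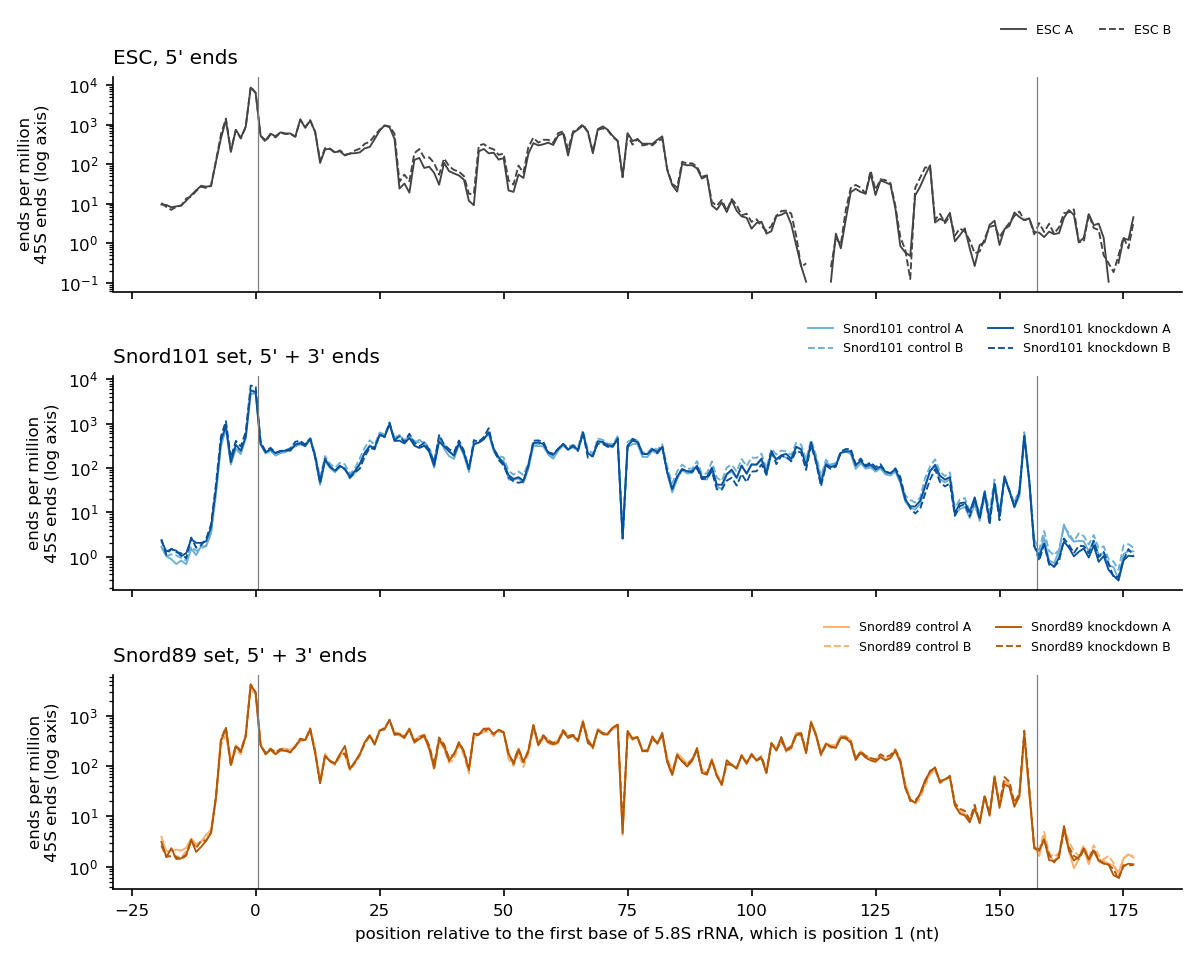
Ends per 1000000 45S ends (log scale) from 20 positions before to 20 after 5.8S in the 10 libraries; positions with 0 ends are not drawn. The peaks at -1 and 0 appear in every library, the peak at 155 only in the neuron tables, and the ESC curve drops between positions 91 and 92.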

How the data were processed

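Per the file headers, the authors deposited whole-number counts of read ends per position and, as a fraction, a score per library (5′ ends in the ESC table, 5′ plus 3′ ends in the neuron tables). Per the submitters' processing notes, Trim Galore, cutadapt, Bowtie2 and bedtools were used; versions, reference and filters are not given in the sources used here. The score was recomputed with 6 flanking positions per side (weights 1.0 to 0.5) and matched the deposited one within 1e-06 at 157 of 157 positions in each library.

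Ends were tested with edgeR 4.0.16 (R 4.3.3) by quasi-likelihood, with the log flanking mean as offset, a mean flanking count of at least 10, no score minimum and Benjamini-Hochberg adjustment over all positions. Alternatives used DESeq2 1.42.0, limma 3.58.1 (pseudocount 0.5), other windows and minimums, and each library left out. The fit was tested on simulated data. The choice of 5.8S as subject, the lists and the tests were made with earlier results of these data known; the bounds use no measured value. Positions named are the known sites, those with the highest scores and the positions beside the 0.75 threshold, those called (up to 10 by p, otherwise the 5 with the lowest p), the 3 with most ends per table and the mature ends. Runs, positions beside the mature-end peaks and the members of counts of 5 or fewer were named after their values were seen.

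The sequence of the other ASO is not reported here. The main tests did not pair libraries by replicate letter. Deviations of same-lettered libraries correlated at -0.12 (Snord101), 0.02 (Snord89) and -0.32 (control groups) over all 45S positions tested. Over the 157 of 5.8S they correlated at -0.24, 0.18 and -0.42. Each value rests on only 2 pairs.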

Additional observations from a re-analysis of the deposited data

How the results depend on the processing

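The count of 0 called positions in the Snord101 comparison moved to 3 in DESeq2 (50, 114 and 145; 4.35% of all positions passed), 2 in a fit over all 4 neuron groups (50 and 114; 3.54% of all) and 0 to 15 with single libraries left out. The Snord89 and interaction counts of 0 moved to 0 to 1 with single libraries left out: position 155 without Snord89 control A and position 33 (interaction) without Snord101 control B, where 4.52% and 4.82% of all positions passed. In place of the 43 control-set calls there were 10 with a score minimum of 0.5 (33 positions tested; 8 of the 10 among the 43; 14.8% of all positions), 6 when limma tested the score (4 among the 43; 1.81% of all), 0 when it tested the log ratio, and 0 to 60 with single libraries left out. A replicate block by letter left 0 called positions in each of the 4 comparisons. The shares of all positions that passed with it differed: 0.223% for Snord101, 1.69% for Snord89, 0.0231% for the interaction and 0.0% between the control groups. The labels do not say whether libraries of the same letter belong together. Crossed pairings, added after seeing the data, gave 1 call for Snord101 (position 50; 2.88% of all positions passed) and 73 between the control groups (20.7% of all). The cause of these changes was not tested.

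Of the 43 control-set calls, 7 changed sign with the library-size offset and 1 (position 48) with the median flank; under the other alternatives none of those tested did. Among the positions followed singly, those that changed sign had not passed the threshold. The log2 value at position 1 for Snord101 was 0.036 with the library-size offset. With single libraries left out, position 13 ran from -0.257 to 0.091 for Snord101 (positive without control B) and from -0.081 to 0.267 between the control groups (negative without Snord101 control B). In the interaction it ran from -0.14 (without Snord101 control A) to 0.208, was -0.02 without Snord101 knockdown A and was -0.096 with the library-size offset.

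In place of the 29 ESC positions (18.5%, beside 14.1% of all 45S positions) there were 18 with 2 flanking positions per side (11.5% beside 9.44%), 16 with the median flank (10.2% beside 8.31%), 11 at a score of 0.9 (7.01% beside 7.8%), 50 at 0.5 (31.8% beside 26.5%) and 13 with at least 1000 flanking ends (14.8% beside 10.1%; added after seeing the data). In place of the 3 control neuron positions (1.91% beside 1.79%) there were 7 with 2 flanking positions per side (4.46% beside 1.31%), 30 at a score of 0.5 (19.1% beside 7.5%), 1 without the first and last 6 positions (0.690% of 145) and 3 to 5 with single libraries left out (beside 1.83% to 2.01%). Some values named for the knockdowns, none past the threshold, also moved by over 1.5 times. With the library-size offset the Snord101 values were -0.55 at position 114 and 0.19 at 145, the Snord89 values -0.06 at 150 and 0.27 at 51, and the differences of effects -0.60 at 114, -0.89 at 135 and -0.52 at 113. With 2 flanking positions per side they were 0.21 at 145 (Snord101), -0.07 at 150 (Snord89) and -0.27 at 135 (difference). In ESCs depth limits the scores most from position 94 on, where the median position had 53 to 80 ends.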
